A study of Homo sapiens with 20 samples.

Results

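The genes of the Wnt signalling pathway's outer layer were described in human corneal epithelial cells given the matrix protein SPARC. They were 50 protein-coding genes chosen by symbol out of 60671 gene identifiers: 19 Wnt ligands (WNT), 10 frizzled receptors (FZD), the 2 co-receptors LRP5 and LRP6, and 3 R-spondin receptors (LGR4, LGR5 and LGR6). The others were the 2 receptor-removing ubiquitin ligases RNF43 and ZNRF3, 8 secreted antagonists (SFRP and DKK), the 2 AXIN scaffolds, and the 4 TCF/LEF transcription factors. The cells were hTCEpi, a human corneal epithelial line immortalized with telomerase, kept in a keratinocyte growth medium with added calcium. For 24 hours they received recombinant human SPARC, at 0 µg/ml in the control, 0.05 µg/ml in the group SPARC 0.05, 0.5 µg/ml in SPARC 0.5 and 5 µg/ml in SPARC 5. RNA was sequenced in 5 samples of each group after enzymatic removal of ribosomal RNA. The 3 doses were set against the same control samples, so their comparisons are not independent. The line is a single immortalized cell source, and the labels do not say whether samples of a group were separate cultures, so p-values measure the spread between these samples only.

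Wnt ligands are secreted lipid-bearing proteins that bind a frizzled receptor together with LRP5 or LRP6. In the canonical branch this binding halts the destruction of beta-catenin, which then acts with TCF/LEF factors on target genes, AXIN2 among them; other ligands such as WNT5B act mostly through branches that do not need beta-catenin. In the cornea, Wnt signals are known for their part in the upkeep of limbal stem cells and in the growth of the epithelium. SPARC is a secreted matrix-binding protein that is produced in wounds.

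Promoter sequences are shown for the ligands that rose, WNT5B and WNT3, and for the co-receptor that fell, LRP5, since the account of the ligands and receptors turns on these genes. The RefSeq promoter table (build GRCh38.p14) matched 34 of the 50 members, with 43 windows, and 5 of the 10 members called below in a dose or over the doses. Each sequence is the 250 bases before the RefSeq start, 5′ to 3′ on the gene's strand, and capitals mark the SMAD-type letters CAGAC on either strand. The windows lie at chr12:1616806-1617055 (+) and chr12:1628981-1629230 (+) for WNT5B, at chr17:46818693-46818942 (-) for WNT3 and at chr11:68312341-68312590 (+) for LRP5.
WNT5B, upstream start: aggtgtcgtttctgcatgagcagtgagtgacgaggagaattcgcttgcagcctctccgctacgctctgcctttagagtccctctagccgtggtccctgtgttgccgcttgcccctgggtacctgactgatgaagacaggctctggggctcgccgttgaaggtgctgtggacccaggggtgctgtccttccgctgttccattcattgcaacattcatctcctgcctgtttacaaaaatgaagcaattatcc
WNT5B, downstream start: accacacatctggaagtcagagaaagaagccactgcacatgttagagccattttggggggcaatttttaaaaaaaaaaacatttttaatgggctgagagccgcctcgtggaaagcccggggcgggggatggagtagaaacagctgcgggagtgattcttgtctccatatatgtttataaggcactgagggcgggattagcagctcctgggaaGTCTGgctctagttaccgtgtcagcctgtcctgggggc
WNT3: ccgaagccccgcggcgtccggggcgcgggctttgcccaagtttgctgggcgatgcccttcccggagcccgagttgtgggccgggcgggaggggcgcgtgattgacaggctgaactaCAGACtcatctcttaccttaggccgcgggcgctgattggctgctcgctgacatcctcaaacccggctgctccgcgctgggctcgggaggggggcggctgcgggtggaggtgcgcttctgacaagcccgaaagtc
LRP5: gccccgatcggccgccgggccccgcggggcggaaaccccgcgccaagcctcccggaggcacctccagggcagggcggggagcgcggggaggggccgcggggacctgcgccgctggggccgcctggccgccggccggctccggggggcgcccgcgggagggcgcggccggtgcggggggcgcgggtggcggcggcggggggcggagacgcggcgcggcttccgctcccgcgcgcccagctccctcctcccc

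The letters in capitals stood 38 bases before the downstream WNT5B start, as GTCTG on the printed strand, and 134 bases before the WNT3 start. CAGAC was in 38.0% of all 35116 promoter windows of this length and in 15 of the 43 windows of members. The TCF/LEF core letters CTTTGA were in 11.2% of all windows and in 1 of the 43, and CTTTGT was in 13.7% of all windows and in 7 of the 43. Neither core was in the 6 windows of members called below, and nor were TGANTCA (6.57% of all windows), the letters of the AP-1 site, and CATTCC (11.9%), those of the TEAD site. Each motif was searched on both strands; the TCF/LEF cores share their first 5 letters, and CTTTGA ends in the TGA that opens TGANTCA. The LRP5 window was 87.2% G and C with 43 CpG pairs, against 54.8% with 10 and 50.8% with 7 in the upstream and downstream WNT5B windows.

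Libraries held between 31955358 and 50112286 counts, and 22938 genes had enough counts to test. Levels are CPM (counts of a gene relative to the size of its library, scaled between samples), and levels of different genes are compared only as CPM per kilobase of exon. Of 10 epithelial markers, KRT14, ITGB4 and TP63 rose at SPARC 5, KRT15 and EPCAM fell, and KRT5, PAX6, KRT3 and CDH1 did not pass the edgeR test described below. KRT15, a basal keratin, averaged 53.1 ± 7.52 CPM in SPARC 5 and 114 ± 24.5 CPM in control (log2 fold change −1.11 ± 0.14, edgeR adjusted p = 2.98e-05). KRT14, another basal keratin, averaged 465 CPM in SPARC 5 and 331 CPM in control (log2 fold change 0.49 ± 0.06, adjusted p = 3.92e-05). The integrin ITGB4 averaged 1470.4 ± 44.8 CPM in SPARC 5 and 1220.2 ± 17.3 CPM in control, EPCAM 69.2 ± 1.75 CPM in SPARC 5 and 86.6 ± 3.11 CPM in control, and KRT5 11322 ± 157 CPM in SPARC 5 and 11321 ± 354 CPM in control. The part of these epithelial changes in the results below was not tested. Of the corneal markers, the keratin KRT12 had at most 4 counts in a sample and was too scarce to test, KRT3 averaged 1.80 ± 0.318 CPM in SPARC 5 and 1.46 ± 0.0501 CPM in control, and PAX6 averaged 7.65 ± 0.756 CPM in SPARC 5 and 7.66 ± 0.954 CPM in control. KERA, a defining gene of corneal stroma cells, was at 0 counts in every sample, and LUM did not exceed 4. The 9 stroma and fibroblast markers summed to 5.96 to 9.88 CPM in SPARC 5 and 5.50 to 8.17 CPM in control, and their part in the results below was not tested. SOX10, listed as a marker of Schwann cells, averaged 0.599 ± 0.316 CPM in SPARC 5 and 1.21 ± 0.361 CPM in control (log2 fold change −1.03 ± 0.32, adjusted p = 0.0212), and its part was likewise not tested. The cells' own SPARC gene had 0 to 23 counts. Within SPARC 5, libraries 2 and 5 stood at opposite ends of the second principal component, and counts without them are given below. In bulk RNA, fewer cells of a type and less RNA per cell cannot be told apart.

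In control cells 10 of the 50 members reached 10 CPM per kilobase, 16 lay between 1 and 10, and 24 lay under 1. The inhibitor DKK1, which blocks LRP5 and LRP6, stood highest at 57.1 ± 5.50 CPM per kilobase (SD, n = 5 here and below). LRP5 followed at 53.8 ± 1.61, DKK3 at 49.8 ± 1.74, FZD6 at 33.8 ± 0.881 and the frizzled-related antagonist SFRP1 at 32.2 ± 0.822. Among these 5, neighbouring levels overlapped within their SD for DKK1 and LRP5 and for FZD6 and SFRP1. The top member of each remaining role was AXIN1 at 16.9, LGR4 at 15.9, TCF7L1 at 14.6, the ligands WNT10B and WNT7A at 6.57 and 6.48, and ZNRF3 at 6.17 CPM per kilobase. The receptors FZD6, FZD2 (10.5) and FZD5 (7.40) and 3 genes of the antagonist group, DKK1, DKK3 and SFRP1, lay above every ligand measured.

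**Figure D1:**
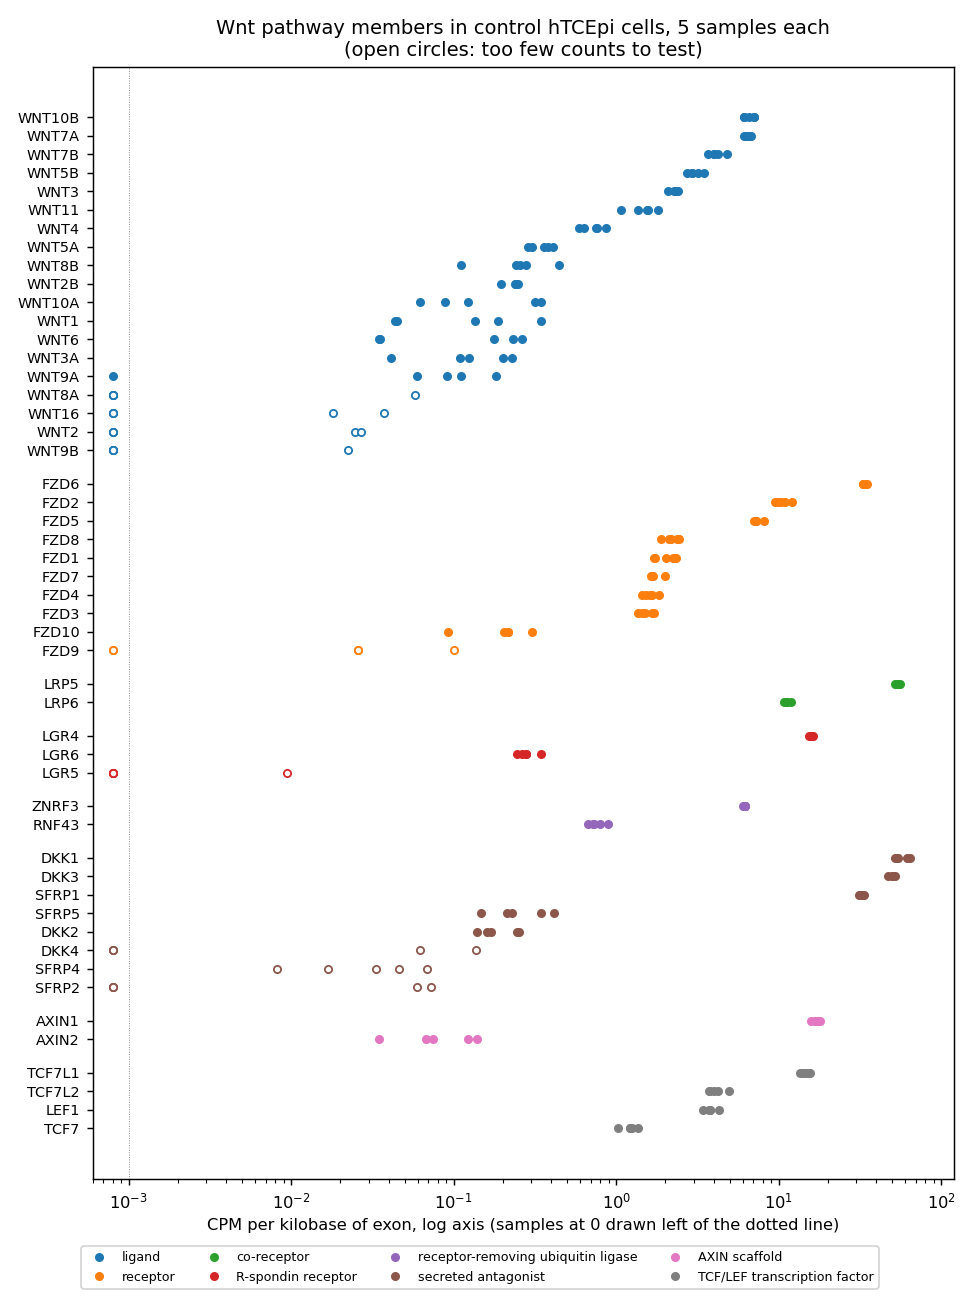
Level of the 50 members in the 5 control samples, in CPM per kilobase of exon on a log axis, grouped by role; open circles are members with too few counts to test. DKK1, LRP5 and DKK3 lie furthest right, at 57.1, 53.8 and 49.8, and the ligands WNT10B and WNT7A lie at 6.57 and 6.48.

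Of the 50 members 41 had enough counts to test and 9 did not. Both LGR5, the intestinal stem cell receptor, and WNT9B never exceeded 3 counts in a sample, with maxima of 2 and 3, and were not detected. A floor of 3 counts was 0.0599 to 0.0941 CPM, depending on the library, and covers counting error only. The other untested members peaked at 4 counts for WNT8A and WNT2, 5 for DKK4, 6 for SFRP2, 8 for FZD9, 10 for WNT16 and 14 for SFRP4. Tested members with 5 samples over the filter's level of 0.265 CPM in every group numbered 33; the other 8, SFRP5, WNT8B, WNT10A, WNT1, WNT6, WNT3A, WNT9A and AXIN2, had fewer in some group.

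At the highest dose, 9 of the 41 tested members changed: WNT5B, WNT3, FZD10, FZD2, SFRP1, DKK3, AXIN2 and TCF7L1 rose, and LRP5 fell. A change means an adjusted p under 0.05 in the quasi-likelihood test of edgeR, with Benjamini-Hochberg adjustment over all genes tested. The share was 22.0% of the tested members, against 11.6% of all genes tested (7.04% higher, 4.58% lower). The members were chosen with earlier results of these data known, so these shares do not test the members as a set. Among the 23 members of 10 CPM or more, 7 were called, against 22.3% of all 9624 genes at that level. Between 1 and 10 CPM 1 of 9 was called (7.53% of all genes), and under 1 CPM 1 of 9 (1.28%). The median log2 fold change of the tested members was 0.06, and that of all genes −0.01. With no scaling beyond library size, the 9 calls split into 6 higher and 3 lower, because WNT3 and AXIN2 missed the threshold and WNT10B (log2 fold change −0.21, adjusted p = 0.049) and LGR4 (−0.10, adjusted p = 0.0214) passed it as lower. Over all genes that scaling called 999 higher and 2191 lower, against 1615 and 1050 in the main fit. A correction for GC content and length gave 9 members higher and 2 lower, and 1495 and 1056 over all genes.

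By role, the calls at SPARC 5 were 2 of 15 tested ligands, 2 of 9 receptors, 1 of 2 co-receptors, 0 of 2 R-spondin receptors, 0 of 2 ubiquitin ligases, 2 of 5 antagonists, 1 of 2 AXIN genes and 1 of 4 TCF/LEF factors. Groups did not overlap for 7 of the 41 members, where 7.68% of all genes showed this. These 7 were WNT5B, WNT3, FZD10, FZD8, SFRP1, DKK3 and TCF7L1, and in each of them all SPARC 5 samples lay above all control samples.

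**Figure D2:**
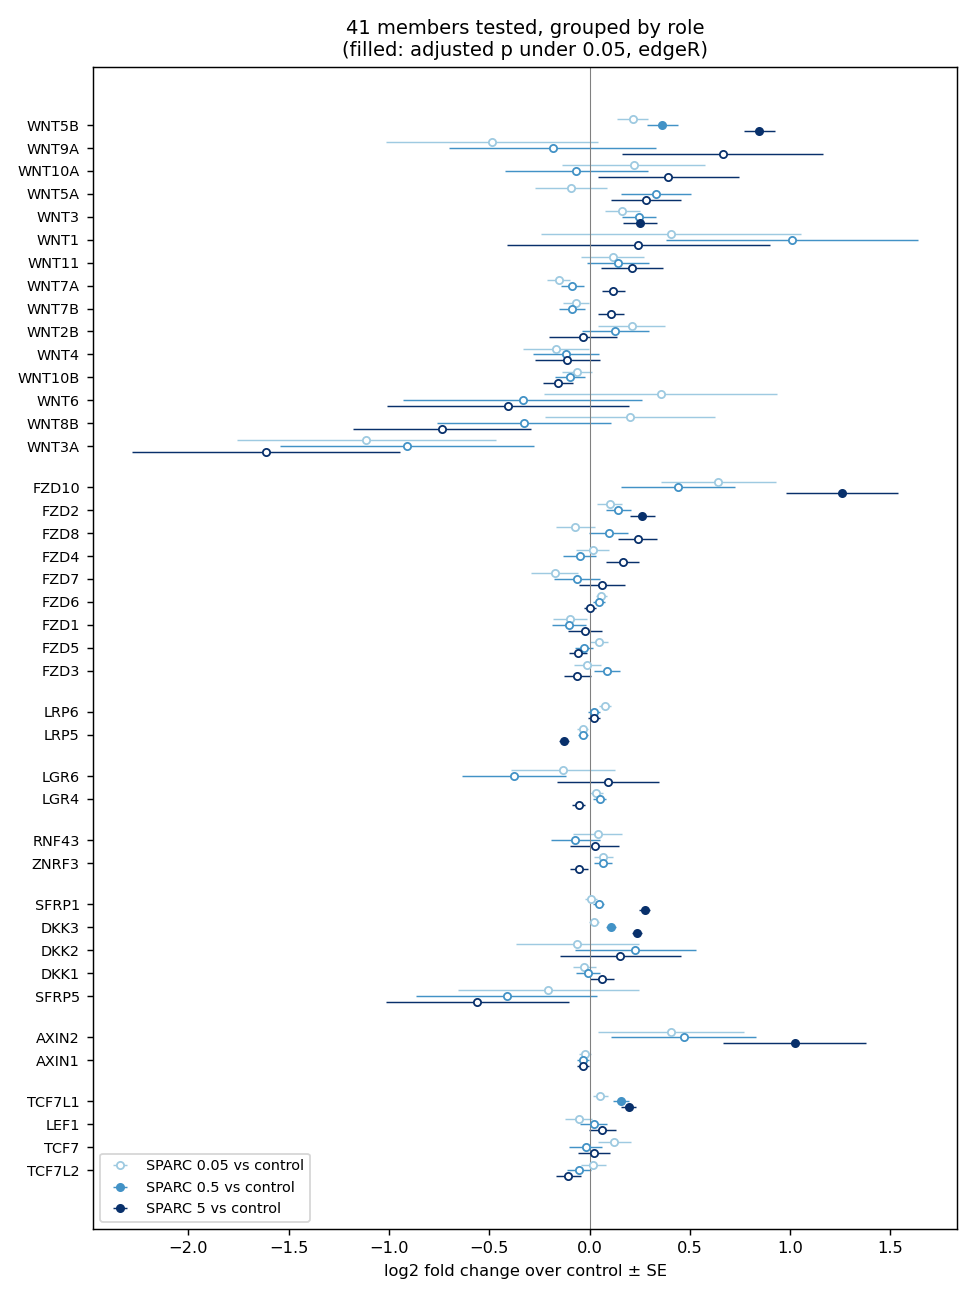
Log2 fold change over control ± SE of the 41 tested members at SPARC 0.05, 0.5 and 5 µg/ml, grouped by role; filled points have an edgeR adjusted p under 0.05. At SPARC 5 filled points include FZD10 at 1.26, AXIN2 at 1.02 and WNT5B at 0.85, and LRP5 at −0.13 is the filled point left of 0.

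WNT5B (ENSG00000111186, chromosome 12, 1529891 to 1647243, plus strand, GRCh38), a ligand known mostly for beta-catenin-independent signalling, rose the most among the ligands called. Its levels were 12.7, 12.6, 11.7, 13.6 and 14.9 CPM in control, 13.9, 15.9, 12.5, 18.0 and 15.5 CPM in SPARC 0.05, 15.2, 16.1, 18.1, 17.3 and 17.3 CPM in SPARC 0.5, and 22.2, 27.2, 23.6, 23.8 and 20.8 CPM in SPARC 5. Every SPARC 5 sample lay above every sample of the lower doses and the control, and every SPARC 0.5 sample above every control. The log2 fold change at SPARC 5 was 0.85 ± 0.08 (SE; 1.80-fold; edgeR adjusted p = 6.68e-16), and at SPARC 0.5 it was 0.36 ± 0.08 (1.29-fold; adjusted p = 0.00235). At SPARC 0.05 it was 0.21 ± 0.08, which missed the threshold (adjusted p = 0.296). Set directly against SPARC 0.5, SPARC 5 was higher by 0.48 ± 0.07 (adjusted p = 6.29e-07). The gene spans FBXL14 on the other strand, with no shared exon bases, and FBXL14 had a log2 fold change of −0.07 (adjusted p = 0.464).

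The summed level of the 19 ligands was 29.5 ± 1.12 CPM per kilobase in SPARC 5 and 26.3 ± 0.718 in control, and its make-up differed. WNT5B took 18.5% ± 1.40 of the sum in SPARC 5, against 11.6% ± 1.31 in control, and the ranges over samples were 17.2% to 20.8% against 10.0% to 13.5%. WNT10B took 19.9% ± 1.40 in SPARC 5 and 24.9% ± 1.63 in control. Its own level was 15.5 ± 0.915 CPM in SPARC 5 and 17.3 ± 1.19 CPM in control, which did not pass the test (log2 fold change −0.16 ± 0.07, edgeR adjusted p = 0.181). Shares sum to the whole, so a higher share of 1 ligand lowers the others. In control, WNT10B at 6.57 ± 0.452 and WNT7A at 6.48 ± 0.250 CPM per kilobase did not differ beyond their SD. The shares of WNT7A and WNT7B in SPARC 5 (23.8% ± 1.61 and 15.2% ± 0.651) lay within 1 SD of those in control (24.6% ± 0.996 and 15.8% ± 1.44).

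**Figure D3:**
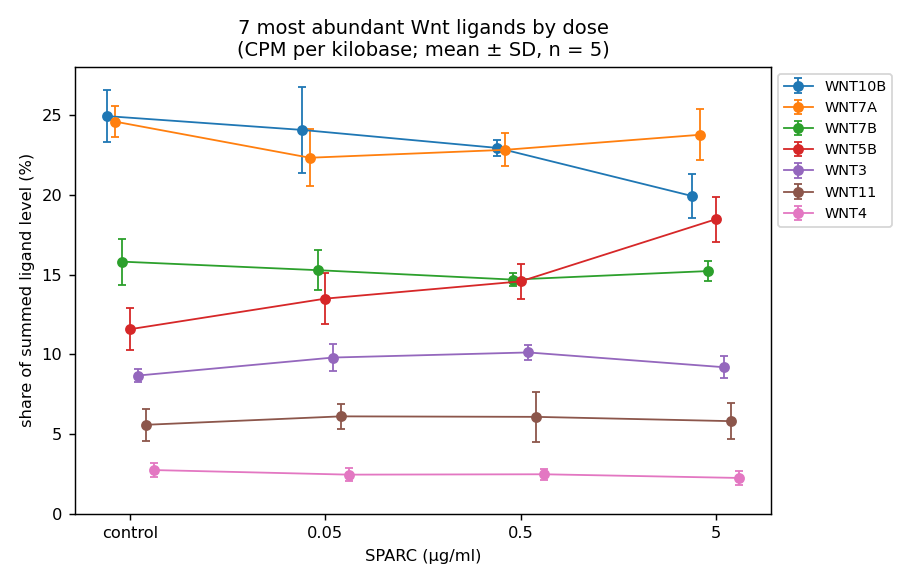
Share of the summed ligand level, in percent, taken by the 7 most abundant ligands at each SPARC dose in µg/ml (mean ± SD, n = 5). WNT5B took 11.6% in control and 18.5% at 5 µg/ml, and WNT10B 24.9% and 19.9%.

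WNT3 (ENSG00000108379, chromosome 17, 46762506 to 46833154, minus strand), a ligand of the beta-catenin branch, rose at the highest dose by less. It measured 9.86, 9.09, 10.2, 9.93 and 10.4 CPM in control, 10.9, 10.3, 9.94, 12.6 and 11.8 CPM in SPARC 0.05, 12.7, 11.5, 12.0, 11.0 and 11.5 CPM in SPARC 0.5, and 12.5, 10.7, 12.7, 12.0 and 11.0 CPM in SPARC 5. All samples of SPARC 5 and of SPARC 0.5 exceeded all control samples, while SPARC 0.05 overlapped control. The log2 fold change was 0.25 ± 0.08 at SPARC 5 (1.19-fold; edgeR adjusted p = 0.0365), close to the 0.24 ± 0.08 at SPARC 0.5 that did not pass (adjusted p = 0.111). The WNT3 call ended without any 1 of 6 samples, namely control samples 1, 2 and 4 and SPARC 5 samples 1, 3 and 4, with adjusted p up to 0.114, and also with library sizes alone (adjusted p = 0.101), without the filter on low counts (0.0559) and with the 2 groups fitted alone (0.0559). The other 13 tested ligands did not pass, with log2 fold changes between −1.61 for WNT3A and 0.66 for WNT9A, both under 1 CPM. WNT3A had 0.134 ± 0.119 CPM in SPARC 5 and 0.412 ± 0.219 CPM in control.

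FZD10 and FZD2, both frizzled receptors, were the receptors that rose. FZD10 (ENSG00000111432, chromosome 12, 130162459 to 130165740, plus strand) had 0.669, 0.997, 0.714, 0.705 and 0.302 CPM in control, 1.17, 1.32, 1.25, 0.779 and 0.786 CPM in SPARC 0.05, 0.690, 0.655, 1.42, 0.978 and 0.815 CPM in SPARC 0.5, and 1.55, 1.59, 1.39, 2.26 and 1.36 CPM in SPARC 5. The SPARC 5 samples, with 49 to 82 counts each, all lay above the control samples, with 10 to 33 counts, and 1 SPARC 0.5 sample reached into their range. Relative to control, SPARC 5 had a log2 fold change of 1.26 ± 0.28 (2.39-fold; edgeR adjusted p = 0.000498), the highest among the members called. At SPARC 0.5 and 0.05 it was 0.44 ± 0.29 and 0.64 ± 0.29 (adjusted p = 0.54 and 0.461). A neighbouring gene 202 bases away on the other strand, FZD10-AS1 (ENSG00000250208), was looked at after its values were seen. It averaged 1.08 ± 0.449 CPM in SPARC 5 and 0.254 ± 0.133 CPM in control (log2 fold change 2.09 ± 0.41, adjusted p = 5.23e-05). FZD10 and its neighbour share no exon bases, and the strand setting of the counting is not given in the sources used here.

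FZD2 (ENSG00000180340, chromosome 17, 44557459 to 44559570, plus strand) came next to FZD6 in receptor level per kilobase. Its values were 20.0, 21.7, 25.5, 23.0 and 20.9 CPM in control, 25.9, 23.9, 21.8, 24.3 and 23.3 CPM in SPARC 0.05, 24.9, 26.6, 22.9, 26.1 and 22.3 CPM in SPARC 0.5, and 26.2, 24.5, 27.4, 26.2 and 28.9 CPM in SPARC 5. A control sample at 25.5 CPM overlapped the SPARC 5 range. For SPARC 5 the log2 fold change was 0.26 ± 0.06 (1.20-fold; edgeR adjusted p = 0.00135), and the values at the lower doses, 0.14 and 0.10, did not pass (adjusted p = 0.259 and 0.675). FZD6, which made up 53.1% ± 0.453 of the summed receptor level in SPARC 5 and 55.4% ± 1.25 in control, had a log2 fold change of 0.00 ± 0.03 (adjusted p = 0.988).

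FZD8 (ENSG00000177283, chromosome 10, 35638249 to 35642278, minus strand), another frizzled receptor, did not pass against control at any dose but passed as a slope over the 4 doses and between SPARC 5 and SPARC 0.05. It had 9.84, 7.61, 8.79, 8.49 and 9.54 CPM in control, 6.97, 8.71, 7.22, 9.91 and 9.33 CPM in SPARC 0.05, 7.85, 10.5, 8.33, 10.7 and 9.92 CPM in SPARC 0.5, and 10.6, 10.8, 10.7, 10.2 and 10.0 CPM in SPARC 5. The SPARC 5 samples all lay above control, and SPARC 0.5 spread across both. The log2 fold change at SPARC 5 was 0.24 ± 0.10 (edgeR adjusted p = 0.1), and the slope was 0.09 ± 0.03 log2 units per dose step (adjusted p = 0.0499). It missed the threshold with library sizes alone (adjusted p = 0.117), with DESeq2 size factors (0.0505), with limma-voom (0.0669), without SPARC 5 libraries 2 and 5 together (0.143) and without any 1 of 15 samples, the exceptions being control samples 1 and 5, SPARC 0.05 sample 4 and SPARC 0.5 samples 1 and 3.

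The co-receptor LRP5 (ENSG00000162337, chromosome 11, 68312609 to 68449275, plus strand) was the member that fell in the main test. Like LRP6, it can join frizzled receptors in beta-catenin signalling. It had 319, 335, 345, 334 and 325 CPM in control, 324, 327, 320.0, 319.6 and 328 CPM in SPARC 0.05, 319, 336, 334, 322 and 310.1 CPM in SPARC 0.5, and 295, 321, 306, 306 and 289 CPM in SPARC 5. All 5 SPARC 5 samples lay under the control mean of 332 CPM, and 1 of them, at 321 CPM, overlapped the control range. Its log2 fold change at SPARC 5 was −0.13 ± 0.03 (0.915-fold; edgeR adjusted p = 8.59e-05). At SPARC 0.5 and at SPARC 0.05 it was −0.03 ± 0.03, which did not pass (adjusted p = 0.634 and 0.745). SPARC 5 was lower than SPARC 0.5 by a log2 difference of −0.10 ± 0.03 (adjusted p = 0.011). The related co-receptor LRP6 had 118 ± 3.48 CPM in SPARC 5 and 116 ± 4.34 CPM in control (log2 fold change 0.02 ± 0.03, adjusted p = 0.758).

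Neither tested R-spondin receptor nor either ubiquitin ligase was called at SPARC 5. LGR4, the abundant receptor through which R-spondins protect frizzled proteins, had 96.9 ± 4.75 CPM in SPARC 5 and 101 ± 2.37 CPM in control (log2 fold change −0.06 ± 0.03, edgeR adjusted p = 0.342). ZNRF3, a ligase that removes frizzled receptors from the cell surface, had 41.4 ± 2.46 CPM in SPARC 5 and 43.0 ± 0.525 CPM in control (−0.05 ± 0.05, adjusted p = 0.57). Its relative RNF43 had 5.81 ± 1.01 CPM in SPARC 5 and 5.72 ± 0.651 CPM in control.

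Among the 5 tested antagonists, SFRP1 and DKK3 rose. SFRP1 (ENSG00000104332, chromosome 8, 41261958 to 41309497, minus strand) encodes a decoy that binds Wnt ligands. It measured 152, 151, 149, 159 and 155 CPM in control, 152, 154, 154, 159 and 151 CPM in SPARC 0.05, 162, 154, 161, 159 and 155 CPM in SPARC 0.5, and 182, 185, 184, 191 and 185 CPM in SPARC 5. The 5 SPARC 5 samples stood above all other samples, whose ranges overlapped. SPARC 5 exceeded control by 0.27 ± 0.03 (log2, edgeR adjusted p = 4.99e-14) and SPARC 0.5 by 0.23 ± 0.03 (adjusted p = 1.96e-10), while SPARC 0.5 differed from control by 0.05 ± 0.03 (adjusted p = 0.477).

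DKK3 (ENSG00000050165, chromosome 11, 11963106 to 12009769, minus strand) encodes a secreted dickkopf-family protein. It measured 250.4, 254, 262, 256 and 238 CPM in control, 248, 254, 263, 261 and 256 CPM in SPARC 0.05, 263, 275, 274, 273 and 271 CPM in SPARC 0.5, and 290.3, 295, 303, 304 and 293 CPM in SPARC 5. Control, SPARC 0.5 and SPARC 5 did not overlap, and SPARC 0.05 overlapped control. The log2 fold change was 0.02 ± 0.03 at SPARC 0.05 (edgeR adjusted p = 0.861), 0.10 ± 0.03 at SPARC 0.5 (1.08-fold; adjusted p = 0.00946) and 0.24 ± 0.03 at SPARC 5 (1.18-fold; adjusted p = 1.06e-12). The SPARC 0.5 call ended without control sample 5 (adjusted p = 0.0535) and with library sizes alone (0.0569). DKK1 had the highest mean of the antagonists per kilobase, though not in CPM, where DKK3 was higher. It had 131 ± 8.81 CPM in SPARC 5 and 126 ± 12.1 CPM in control (log2 fold change 0.06 ± 0.06, adjusted p = 0.635). The 8 genes grouped as antagonists, DKK3 included, summed to 157.6 ± 3.31 CPM per kilobase in SPARC 5 and 139.7 ± 4.09 in control. Of that sum DKK3 gave 58.7 in SPARC 5 and 49.8 in control, SFRP1 38.9 and 32.2, and DKK1 59.4 and 57.1. Whether DKK3 acts against Wnt in these cells was not tested.

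AXIN2 (ENSG00000168646, chromosome 17, 65528563 to 65561647, minus strand), a scaffold of the beta-catenin destruction complex and a widely used target gene of the pathway, was scarce and rose at the threshold. It had 0.724, 0.393, 0.640, 0.353 and 0.181 CPM in control, 0.525, 0.405, 0.545, 0.809 and 0.786 CPM in SPARC 0.05, 0.471, 0.655, 0.839, 0.668 and 0.551 CPM in SPARC 0.5, and 0.799, 1.37, 0.550, 1.43 and 0.583 CPM in SPARC 5. Samples 2 and 4 of SPARC 5 stood high, and the other 3 lay within or near the control range. A gene model on the same strand, AC004805.1, covers 1316 of the 5226 exon bases of AXIN2 and averaged 0.6 counts per sample. How reads on the shared bases were assigned was not tested, so this low count does not show that AXIN2 lost no reads. The AXIN2 levels rest on 21 to 52 counts per sample in SPARC 5 and 6 to 26 in control. At SPARC 5 the log2 fold change was 1.02 ± 0.36 (2.03-fold; edgeR adjusted p = 0.0453). The call ended without any 1 of 8 samples, namely SPARC 5 samples 1, 2 and 4, SPARC 0.5 sample 3, SPARC 0.05 sample 5 and control samples 2, 4 and 5, with adjusted p from 0.0505 to 0.186. It also ended without SPARC 5 libraries 2 and 5 together (adjusted p = 0.12), with limma-voom (0.0995), without the filter on low counts (0.089), with the 2 groups fitted alone (0.066) and with library sizes alone (0.0538). AXIN1, its abundant relative, had 124 ± 3.77 CPM in SPARC 5 and 127 ± 5.86 CPM in control (−0.03 ± 0.03, adjusted p = 0.604).

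Of the TCF/LEF factors only TCF7L1 changed. TCF7L1 (ENSG00000152284, chromosome 2, 85133410 to 85310388, plus strand), which acts mostly as a repressor of Wnt target genes, made up 64.9% ± 1.36 of the summed TCF/LEF level in SPARC 5 and 61.4% ± 1.24 in control. It measured 60.1, 66.9, 62.4, 68.9 and 64.3 CPM in control, 64.5, 68.2, 64.2, 69.1 and 68.9 CPM in SPARC 0.05, 72.2, 68.1, 76.2, 71.7 and 71.2 CPM in SPARC 0.5, and 72.7, 71.8, 73.3, 75.2 and 76.3 CPM in SPARC 5. SPARC 5 lay wholly above control, and 1 SPARC 0.5 sample at 68.1 CPM overlapped it. The log2 fold change was 0.20 ± 0.04 at SPARC 5 (1.14-fold; edgeR adjusted p = 6.34e-05) and 0.16 ± 0.04 at SPARC 0.5 (1.11-fold; adjusted p = 0.00991). Without control sample 1 or SPARC 0.5 sample 3 the SPARC 0.5 call ended (adjusted p = 0.0605 and 0.0595). TCF7L2, LEF1 and TCF7 had log2 fold changes of −0.11, 0.06 and 0.02 at SPARC 5, with the smallest adjusted p at 0.307.

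**Figure D4:**
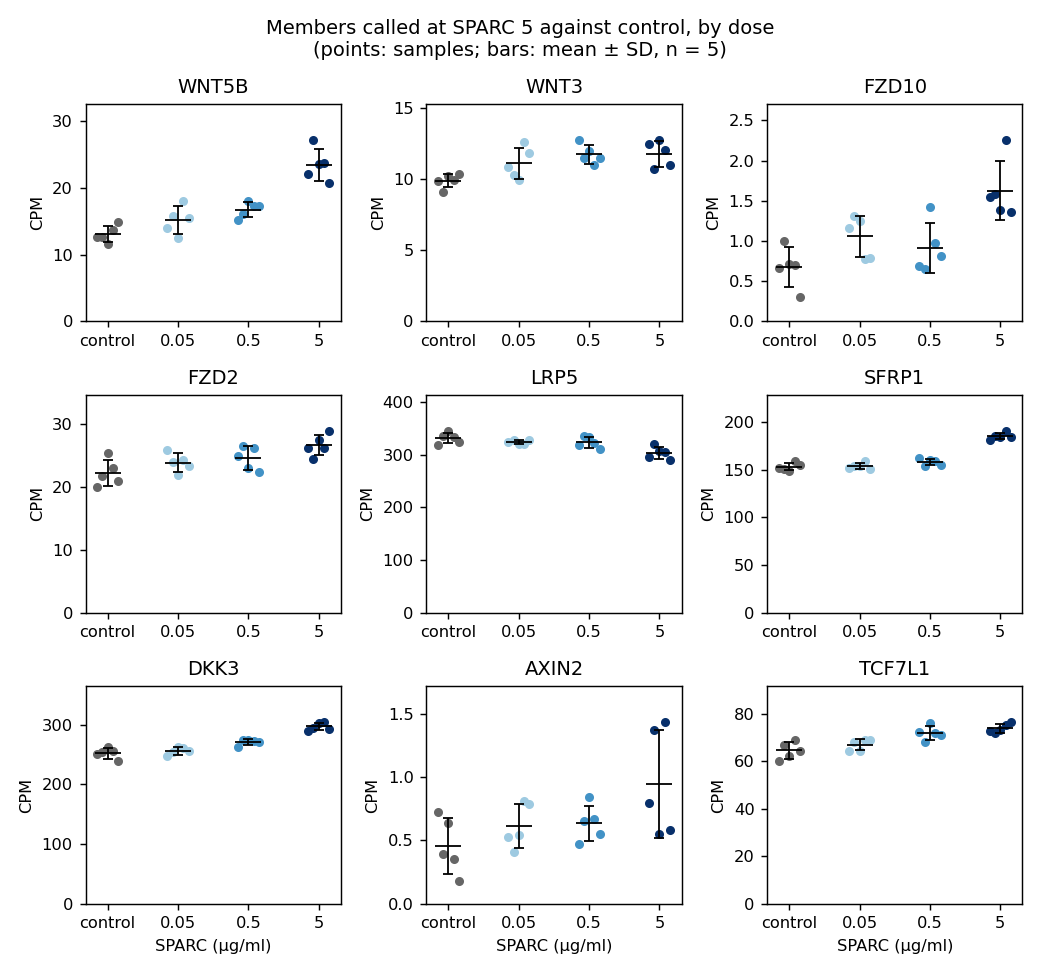
CPM of the 9 members called at SPARC 5 in each of the 20 samples, by SPARC dose in µg/ml (points are samples, bars are mean ± SD, n = 5). WNT5B reaches 23.5 CPM on average at 5 µg/ml against 13.1 CPM in control, and LRP5 is the panel whose mean at 5 µg/ml, 303 CPM, is below its control mean.

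At SPARC 0.5, WNT5B, DKK3 and TCF7L1 rose and no member fell, which is 3 of 41 against 2.25% of all genes (1.36% higher, 0.894% lower). Groups did not overlap for 4 members (WNT5B, WNT3, DKK3 and ZNRF3), against 3.1% of all genes. At SPARC 0.05 edgeR called 0 of 41 members, against 0.266% of all genes (0.187% higher, 0.0785% lower), and DESeq2 and limma-voom also called 0. At that dose 5 of the 41 members had an unadjusted edgeR p under 0.05, where 2095 of all 22938 genes did. WNT7A, a ligand prominent in corneal epithelium, was the member whose groups did not overlap there (1.74% of all genes): it averaged 26.6 ± 0.996 CPM in SPARC 0.05 and 29.6 ± 1.15 CPM in control (log2 fold change −0.15 ± 0.06, adjusted p = 0.294).

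As a slope over the 4 doses, taken as equal steps, 10 of 41 members changed, 9 upward and 1 downward, against 11.1% of all genes (6.81% upward, 4.27% downward). They were the 9 called at SPARC 5 and FZD8. The steepest slopes were those of FZD10, at 0.36 ± 0.09 log2 units per step (edgeR adjusted p = 0.00226), AXIN2, at 0.32 ± 0.11 (adjusted p = 0.0488), and WNT5B, at 0.27 ± 0.03 (adjusted p = 1.35e-11). Without scaling beyond library size 8 were called, 6 upward and 2 downward, where 937 of all genes were called upward and 2121 downward. In a slope fitted without SPARC 5, 3 members passed, all upward, and AXIN2, WNT3, FZD10, FZD2, FZD8, SFRP1 and LRP5 did not. The SFRP1 slope was then 0.02 (edgeR adjusted p = 0.493), against 0.08 to 0.09 with any 1 sample left out. LRP5 had −0.02, against −0.04 to −0.03. FZD10 had 0.21, AXIN2 0.23 and WNT3 0.12 in the fit without SPARC 5. The AXIN2 slope missed the threshold without any 1 of 11 samples (control 2, 4 and 5, SPARC 0.05 1 to 3, SPARC 0.5 3 and 4, SPARC 5 1, 2 and 4; adjusted p up to 0.207). The WNT3 slope, 0.08 ± 0.03 (adjusted p = 0.0312), missed it without any 1 of 5 (control 1, 2 and 4, SPARC 5 1 and 3; up to 0.102).

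The doses were also set against each other. SPARC 5 differed from SPARC 0.5 in 6 members, against 4.8% of all genes (3.31% higher, 1.49% lower): WNT5B, WNT7A, DKK3 and SFRP1 were higher and LGR4 and LRP5 lower. It differed from SPARC 0.05 in 7 members, against 8.28% of all genes (5.54% higher, 2.74% lower): WNT5B, WNT7A, FZD8, DKK3, SFRP1 and TCF7L1 were higher and LRP5 lower. With library sizes alone this split became 4 higher and 6 lower, and over all genes 842 were higher and 1480 lower. Groups did not overlap for 5 members between SPARC 5 and SPARC 0.5 (4.8% of all genes) and for 6 between SPARC 5 and SPARC 0.05 (7.18%). WNT7A averaged 26.6 ± 0.996 CPM in SPARC 0.05, 27.9 ± 0.895 CPM in SPARC 0.5 and 32.2 ± 3.23 CPM in SPARC 5. SPARC 5 exceeded SPARC 0.05 by 0.27 ± 0.06 (log2, edgeR adjusted p = 0.000179), yet SPARC 5 and control differed by 0.12 ± 0.06, which did not pass (adjusted p = 0.183). TCF7L1 differed between SPARC 5 and SPARC 0.5 by 0.04 ± 0.04 (adjusted p = 0.739), and WNT3 by 0.01 ± 0.08 (adjusted p = 0.985). Between SPARC 5 and SPARC 0.5, single samples ended 3 calls: LGR4 without any 1 of SPARC 5 samples 2, 3 and 5 or SPARC 0.5 samples 1, 2, 4 and 5 (adjusted p up to 0.215), WNT7A without SPARC 5 sample 1, 2 or 4 or SPARC 0.5 sample 3 (up to 0.104), and LRP5 without SPARC 5 sample 5 or SPARC 0.5 sample 2 (up to 0.0685). The LGR4 call also ended with limma-voom (adjusted p = 0.0619), without the filter on low counts (0.0622) and without SPARC 5 libraries 2 and 5 together (0.259). Against SPARC 0.05 the FZD8 call ended without SPARC 5 sample 1, 2 or 3 or SPARC 0.05 sample 1 or 3 (adjusted p up to 0.134). It also ended with library sizes alone (0.0589), as did that of TCF7L1 (0.071), and without SPARC 5 libraries 2 and 5 together (0.0775).

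The authors' deposited tables list 33 of the members, of which 0 passed an adjusted p under 0.05 at SPARC 0.05, 3 at SPARC 0.5 and 8 at SPARC 5 (7 higher, 1 lower). Of the 16045 genes in each of these tables, 110 passed at SPARC 0.05, 549 at SPARC 0.5 and 2614 at SPARC 5. In the authors' deposited table WNT5B had a log2 fold change of 0.83 at SPARC 5, and LRP5 had −0.14. AXIN2 is not in that table.

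The rest of the pathway was followed through 69 further genes in 7 lists, of which 54 were tested. At SPARC 5, 16 of the 54 rose and 0 fell, against 7.04% of all genes higher and 4.58% lower, and 22.3% of genes of 10 CPM or more called in either direction. The lists were chosen with earlier results of these data known, so these shares do not test the lists. With no scaling beyond library size 11 were higher and 8 lower, the lower ones being WLS, CELSR2, APC2, AMER1, GSK3A, CSNK1D, CSNK1E and MYC. Of all genes 999 were then called higher and 2191 lower. Wnt secretion had 1 of 2 genes called: PORCN, which attaches the lipid to Wnt ligands, averaged 27.3 ± 1.36 CPM in SPARC 5 and 21.9 ± 1.57 CPM in control (log2 fold change 0.31 ± 0.06, edgeR adjusted p = 9.52e-05). All 4 R-spondins had too few counts to test. Of the other inhibitors 2 of 4 tested rose, KREMEN1 (0.23 ± 0.04, adjusted p = 1.31e-05), a receptor for dickkopf proteins, and TRABD2A (0.41 ± 0.10, adjusted p = 0.000936), a protease that cleaves Wnt ligands.

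Among 10 tested receptors and planar polarity genes, ROR1 and VANGL1 rose. ROR1, a receptor tyrosine kinase that binds WNT5A, averaged 3.02 ± 0.633 CPM in SPARC 5 and 1.70 ± 0.286 CPM in control (log2 fold change 0.83 ± 0.18, edgeR adjusted p = 0.000553). In the cytoplasm list 5 of 16 rose: CTNNB1, which encodes beta-catenin, GSK3B, APC, TNKS2 and USP34. CTNNB1 averaged 558 ± 14.6 CPM in SPARC 5 and 499 ± 11.6 CPM in control (0.16 ± 0.02, adjusted p = 1.6e-08). APC and GSK3B, parts of the complex that destroys beta-catenin, each had a log2 fold change of 0.15 ± 0.03 (adjusted p = 0.00109 and 6.79e-05). With a correction for GC content and length, APC, TNKS2 and USP34 missed the threshold (adjusted p = 0.123, 0.0525 and 0.907). TNKS2 and USP34 also missed it with library sizes alone (adjusted p = 0.0888 and 0.346). Of 13 nuclear co-factors 2 rose, the co-repressors TLE1 and TLE5, and both missed the threshold when scaled by library size alone (adjusted p = 0.0877 and 0.278). Single samples ended the calls of TNKS2 (SPARC 5 sample 4), USP34 (SPARC 5 sample 5 or control sample 5), TLE5 (SPARC 5 sample 4 or control sample 1) and TLE1 (control sample 2), with adjusted p from 0.0527 to 0.202.

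Of 11 listed genes that beta-catenin can induce, 9 were tested, and CD44, SOX9, SP5 and ZNF703 rose. NKD1, NKD2, TNFRSF19, BAMBI and ASCL2, also listed, were not called or had too few counts to test. Whether beta-catenin induced the genes that rose here was not tested. The surface glycoprotein CD44 averaged 768 ± 12.3 CPM in SPARC 5 and 662 ± 19.1 CPM in control (log2 fold change 0.21 ± 0.02, edgeR adjusted p = 1.08e-12). SOX9, a progenitor transcription factor, averaged 42.0 ± 1.93 CPM in SPARC 5 and 31.7 ± 2.81 CPM in control (0.41 ± 0.05, adjusted p = 2.45e-09). SP5, a transcription factor close to the pathway, averaged 3.72 ± 0.803 CPM in SPARC 5 and 2.18 ± 0.375 CPM in control (0.76 ± 0.18, adjusted p = 0.00107); without SPARC 5 libraries 2 and 5 it missed the threshold (adjusted p = 0.0559). ZNF703 had 0.16 ± 0.05 (adjusted p = 0.0322), a call that ended without any 1 of 6 samples: control samples 1, 2 and 5 and SPARC 5 samples 1, 3 and 4. That call also ended with library sizes alone (log2 fold change 0.11, adjusted p = 0.164). MYC and CCND1, both on this list, had log2 fold changes of −0.03 and 0.02 and did not pass; with library sizes alone MYC was called lower (−0.08, adjusted p = 0.018). At SPARC 0.5, 5 of the 54 rose (CTNNB1, APC, TNKS2, USP34 and CD44), against 1.36% of all genes higher and 0.894% lower, and CSNK1D, a kinase that acts on the pathway, fell by 0.14 ± 0.03 (log2, adjusted p = 0.00304); the count of 6 was 2 without SPARC 0.5 sample 4 and 3 without control sample 3.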

How the data were processed

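RNA was measured in 20 hTCEpi samples, 5 per group. The authors deposited whole read counts per Ensembl gene; the submitters' processing notes name GRCh38 as the build and the tools STAR 2.7.9a, featureCounts 2.0.3 (Subread), Salmon 1.5.2, limma, edgeR and bcl2fastq. Neither annotation release nor strand setting is given in the sources used here. The authors also deposited 3 tables, 1 per dose, of log2 fold changes from control with p-values, as the file headers name them.

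Identifiers standing on several entries with equal counts were kept once (168 identifiers, 0.278% to 0.296% of counts). Genes were kept with filterByExpr (minimum count 10) and tested by quasi-likelihood in edgeR 4.0.16 (R 4.3.3), with trimmed mean of M values (TMM) scaling, robust estimates and all 4 groups in 1 model. Benjamini-Hochberg adjustment ran over 22938 genes, and the trend used dose steps 0 to 3. An SE is the log2 fold change divided by the root of F. The common biological coefficient of variation was 6.68%. CPM values carry the same scaling. Exon lengths came from GENCODE 29. A call is an adjusted p under 0.05.

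Every member called in a dose or the trend is described in full, the others by range. The members and lists were chosen with earlier results of these data known. Alternatives included DESeq2 1.42.0 and limma-voom (limma 3.58.1), other scalings and filters, and leaving out samples. The steps were tested on simulated data. Within groups, 40 pairs of samples had a chi-square of 4.09 to 9.55 per gene, so no pair was a repeated library. Reads carry no molecular identifiers. Same-numbered samples did not deviate together (15 correlations, −0.032 to 0.037), and the main test did not pair samples by number. These correlations cannot show whether same-numbered samples shared a culture or a day.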

Additional observations from a re-analysis of the deposited data

Results flagged for a closer look

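FZD10 in SPARC 5 sample 4 stood apart from the other samples of its group, at 2.26 CPM against 1.36 to 1.59 CPM in the other 4. The gap was 0.743 of the group's range, over the critical value of 0.71 for 5 samples. In all, 40 groups of samples were checked (10 genes in 4 groups) and 1 was picked out; chance picks out about 1 in 20 groups.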

How the results depend on the processing

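The number of members called kept within 1.5 times its main value in each comparison under the alternatives run, except for the slope over doses, where leaving out SPARC 5 left 3 called members in place of 10. That fit uses fewer samples. Over all genes it called 280 upward and 211 downward of 22232, against 1561 and 980 of 22938 with SPARC 5 included. Leaving out 1 sample at a time gave 7 to 10 members at SPARC 5, 2 to 3 at SPARC 0.5, 0 at SPARC 0.05, 7 to 10 in the slope, 4 to 8 between SPARC 5 and SPARC 0.5, and 6 to 8 between SPARC 5 and SPARC 0.05. For the 54 other pathway genes the counts were 13 to 17 at SPARC 5, 2 to 6 at SPARC 0.5 and 13 to 18 in the slope; at SPARC 0.5 library sizes alone gave 2 (1 higher, 1 lower) in place of 6, and the slope without SPARC 5 gave 4 in place of 17. Library sizes alone called 165 of all genes higher and 412 lower at SPARC 0.5. Of 1590 alternative values for 51 single genes and comparisons, 1463 kept their call, 127 lost it and 0 changed sign. Without SPARC 5 libraries 2 and 5 there were 8 members called at SPARC 5. With at least 10 counts in 5 samples required, 41 members were detected in place of 48.

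With the replicate number as a block, 8 members were called at SPARC 5, 3 at SPARC 0.5, 0 at SPARC 0.05 and 8 in the slope; AXIN2 missed the threshold at SPARC 5 (adjusted p = 0.0587) and in the slope (0.0701), and FZD8 in the slope (0.0511). None of the 15 same-number correlations exceeded 0.1, and 5 of the 15 samples correlated best with their own number. Members under 1 CPM had a median SE of 0.46 log2 units, against 0.06 at 10 CPM or more, so small changes of scarce members were not detectable at this depth.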
